A study of Mus musculus with 12 samples.

Results

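Expression of 7 genes of cholesterol synthesis and its control was followed in the colorectal RNA of 12 mice. They were taken by symbol from an expression table of 17734 genes, and all 7 were found and passed the filter on low values, which kept 15315 genes. They are Hmgcs1, Idi1, Fdps and Sqle, which encode enzymes of the pathway, Srebf2 and Insig1, which encode regulators of it, and Stard4, which encodes a sterol carrier. The animals were adult male C57BL/6 mice in 4 groups of 3. Normal mice received water for 7 days, and normal mice receiving BBR also received berberine (BBR), a plant alkaloid, by gavage. Colitis mice received dextran sulfate sodium (DSS), a polymer that injures the bowel lining, for 7 days, and colitis mice receiving BBR received both agents. The sample labels give 6 days of BBR gavage, whereas the methods of the study describe daily doses over the whole 7 days. The labels call the tissue colorectum and the methods call it rectal. It was sampled while DSS injury was present, so the groups describe an acute chemical model of colitis.

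Cells build cholesterol from acetyl-CoA through mevalonate and squalene, and they adjust this route to the sterol content of the endoplasmic reticulum. When sterols are low, SCAP escorts SREBP-2, the product of Srebf2, to the Golgi, where proteases release a fragment that activates the genes of the pathway. When sterols are high, INSIG proteins hold SCAP and SREBP-2 in the endoplasmic reticulum. Hmgcs1, Idi1, Fdps, Sqle, Insig1, Stard4 and Srebf2 itself are known targets of SREBP-2. In the bowel, dividing epithelial cells need cholesterol for new membranes.

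The sequences before the transcription start are shown for Hmgcs1, Srebf2 and Insig1, because the first pair varied together among the mice and Insig1 did not. They come from a set of RefSeq promoters on the GRCm38.p6 build, and the set used here held 4 of the 7 genes. The deposited values were made on mm9, so these coordinates belong to the reference alone. Each stretch is on the plus strand, starts 250 bases before the start and stops where an annotated exon of the gene begins. Capitals mark 3 forms of the sterol regulatory element (TCACNCCAC, CACNCCAC and TCACNTGA), the CCAAT box and the GC box GGGCGG, on either strand.

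Hmgcs1, chr13:119690101-119690350, 250 bases: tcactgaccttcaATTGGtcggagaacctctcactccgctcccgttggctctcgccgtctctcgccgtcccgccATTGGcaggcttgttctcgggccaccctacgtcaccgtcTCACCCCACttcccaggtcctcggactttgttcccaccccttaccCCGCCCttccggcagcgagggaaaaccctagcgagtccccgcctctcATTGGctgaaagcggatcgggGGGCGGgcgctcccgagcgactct
Srebf2, chr15:82147019-82147180, 162 bases: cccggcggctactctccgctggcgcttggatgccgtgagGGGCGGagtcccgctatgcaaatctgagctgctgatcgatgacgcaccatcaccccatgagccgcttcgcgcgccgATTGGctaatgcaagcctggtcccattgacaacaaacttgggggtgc
Insig1, chr5:28071162-28071362, 201 bases: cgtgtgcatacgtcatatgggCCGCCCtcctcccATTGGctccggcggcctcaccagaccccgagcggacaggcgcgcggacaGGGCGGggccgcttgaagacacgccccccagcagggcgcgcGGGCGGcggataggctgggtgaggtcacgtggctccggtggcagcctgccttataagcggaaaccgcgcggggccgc

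Over the full 250 bases, Hmgcs1 held TCACCCCAC from 137 to 129 bases before the start, which also contains the shorter form CACNCCAC. TCACNCCAC was found in 1.04% of 27025 mouse promoter windows of this length, and CACNCCAC in 5.16%. Insig1 held the form CACNCCAC on the minus strand, from 9 to 2 bases before the start, in a stretch that is not printed. No match to TCACNTGA, found in 3.49% of windows, was seen in the 4 genes. CCAAT boxes and GC boxes were found in all 4, against 34.5% and 32.9% of windows, and the boxes of Idi1, which lie from 69 to 10 bases before the start, and 3 of the 4 GC boxes of Srebf2, which begin 79, 52 and 34 bases before it, are not in the printed stretches. These letters are a description of the sequence and not of binding.

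The values were deposited as 1 number per gene and mouse and are read as FPKM, which scales reads for transcript length and depth. Below, the values of a group follow the mouse numbers in the labels: 1, 3 and 4 without DSS, with or without BBR, then 1, 2 and 4 with DSS alone and 2, 3 and 4 with both agents. The 4 mice numbered 4 stood apart within every group. Their columns summed to at most 5.04e+05 FPKM with 872 to 1086 genes at 0, against at least 6.96e+05 FPKM with 1332 to 1926 genes at 0 in the other mice. Because of this, results are also given for the 8 mice numbered 1 to 3. Markers of colon epithelium were present in every group, with a sum of 10 genes between 9802 and 17801 FPKM. The sum of 6 granulocyte markers was 0.290 to 2.60 FPKM without DSS, 44.8 to 485 with DSS alone and 2.71 to 209 with both agents. The sum of 6 smooth muscle markers was 1628 to 4839 FPKM without DSS, 70.9 to 651 with DSS alone and 475 to 3435 with both agents. Colitis mouse receiving BBR number 4 had the granulocyte sum of 2.71 and the smooth muscle sum of 3435. The sum of 6 macrophage markers was 211 to 662 FPKM in colitis mice and 115 to 240 in the other groups. Adipocyte markers summed to 23.7 to 236 FPKM in normal mice, with the highest in number 4, and to 15.5 to 32.5 with BBR alone. They summed to 16.6 to 41.3 FPKM with DSS alone and to 16.9 to 126 with both agents. Squamous markers summed to 0.790 to 8.59 FPKM over all mice. The part of these tissue differences in the results was not tested. In bulk RNA, fewer cells of a type and less RNA per cell cannot be told apart.

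Hmgcs1, at the head of the pathway, encodes the cytosolic synthase of HMG-CoA. Its level was 154, 99.1 and 95.1 FPKM in normal mice, 114, 105 and 82.6 with BBR alone, 109, 56.1 and 106 with DSS alone and 82.2, 48.4 and 124 with both agents. The highest mouse was a normal mouse and the lowest a colitis mouse receiving BBR, but a mouse of the same group was the second highest, and the groups overlapped. In colitis mice against normal mice the log2 fold change was -0.39 (95% interval -1.18 to 0.40), and in colitis mice receiving BBR against colitis mice it was -0.13 (-0.92 to 0.66).

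Idi1 encodes the isomerase that makes dimethylallyl diphosphate, a building block of isoprenoids. It read 69.4, 37.5 and 10.9 FPKM in normal mice, 56.7, 51.9 and 9.64 with BBR alone, 54.1, 24.1 and 13.6 with DSS alone and 25.6, 29.8 and 14.1 with both agents. The mouse numbered 4 was the lowest in every group, and the 4 of them (9.64 to 14.1 FPKM) did not overlap with the other 8 (24.1 to 69.4 FPKM). In a limma fit over all genes with the groups as terms, the mice numbered 4 were lower in Idi1 by a log2 difference of -1.77 (SE 0.29, adjusted p = 0.0032), a difference that placed Idi1 among the lowest 0.620% of genes. This contrast called 19.4% of all tested genes, and none of the other 6 genes passed it, with adjusted p from 0.184 to 0.706. For Idi1, 30.5% of the 50-base pieces of its longest coding transcript also occur in transcripts of other annotated genes, so reads of this length could be shared between them.

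Fdps encodes farnesyl diphosphate synthase, whose product is the last one shared by sterols and the other isoprenoids. Its level was 142, 77.2 and 72.7 FPKM in normal mice, 91.8, 105 and 33.5 with BBR alone, 134, 65.5 and 111 with DSS alone and 57.0, 86.0 and 101 with both agents. The lowest value belonged to the normal mouse receiving BBR numbered 4, and the groups overlapped. Fdps was the only gene of the 7 with a higher mean log2 level in colitis mice than in normal mice, by 0.10 (95% interval -0.87 to 1.07), and it was at -0.16 without the mice numbered 4. Of its 50-base pieces, 86.4% also occur in transcripts of other annotated genes, against 13.6% for Hmgcs1, 2.49% for Insig1 and 0 for Sqle, Srebf2 and Stard4. Whether this sharing affected the deposited values was not tested.

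Sqle encodes squalene epoxidase, the enzyme that commits squalene to sterols. It read 64.3, 34.4 and 39.1 FPKM in normal mice, 49.9, 46.8 and 29.1 with BBR alone, 57.3, 20.8 and 57.6 with DSS alone and 31.7, 24.0 and 63.1 with both agents. Both groups with DSS held a mouse near the top and a mouse near the bottom of the whole range. The log2 fold change was -0.11 (95% interval -1.10 to 0.88) in colitis mice against normal mice.

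Srebf2, the gene of the regulator SREBP-2, read 46.9, 34.5 and 45.7 FPKM in normal mice, 47.2, 38.3 and 31.7 with BBR alone, 32.3, 21.7 and 46.5 with DSS alone and 22.6, 21.3 and 56.0 with both agents. The 4 mice with DSS numbered 1 to 3 were the lowest of the 12 except that one of them, at 32.3 FPKM, lay just above a normal mouse receiving BBR at 31.7. The mice with DSS numbered 4 were at or above the middle of the normal mice. Insig1, whose product retains SCAP and SREBP-2 when sterols are plentiful, read 74.8, 51.1 and 47.1 FPKM in normal mice, 62.0, 41.2 and 54.8 with BBR alone, 45.9, 68.2 and 46.6 with DSS alone and 90.2, 44.1 and 51.9 with both agents. Insig1 had the smallest spread of the 7, with the highest mouse at 2.19 times the lowest, whereas Idi1 had the widest, at 7.20 times.

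Stard4 encodes a soluble protein that carries sterols between membranes. It read 43.0, 33.6 and 31.7 FPKM in normal mice, 35.0, 42.5 and 36.3 with BBR alone, 38.2, 10.7 and 42.1 with DSS alone and 17.1, 13.7 and 38.7 with both agents. The 6 mice without DSS stayed between 31.7 and 43.0 FPKM, and 3 of the 6 mice with DSS were at 17.1 FPKM or below. The other 3 were inside the range of the normal groups, so the groups overlapped.

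**Figure D1:**
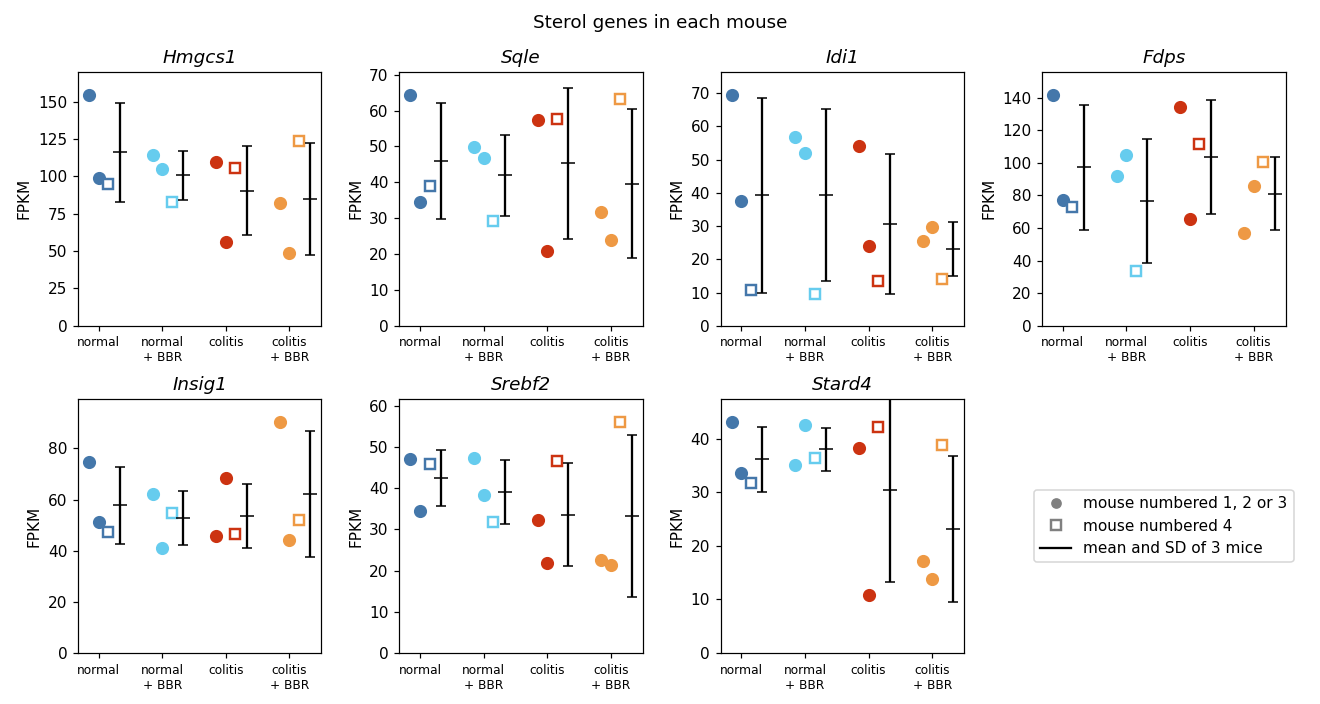
Level in FPKM (vertical axis, from 0) of each of the 7 genes in the 12 mice by group. Filled points are mice numbered 1 to 3, open squares mice numbered 4, and black bars the mean and SD of 3 mice; Idi1 is lowest in the open squares of every group, at 9.64 to 14.1 FPKM, and all groups overlap in all 7 genes.

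On the FPKM scale, which allows levels of different genes to be set side by side, the means over the 12 mice ran from Hmgcs1 at 98.0 and Fdps at 89.7 through Insig1 at 56.5, Sqle at 43.2, Srebf2 at 37.1 and Idi1 at 33.1 to Stard4 at 31.9. No pair of neighbours in this order was kept in all 12 mice. Hmgcs1 was above Fdps in 8 mice, Fdps above Insig1 in 9, Insig1 above Sqle in 8 and Sqle above Srebf2 in 8. Srebf2 was above Idi1 in only 4 of the 12 mice, although its mean was higher, and these were the mice numbered 4.

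The comparison of colitis mice with normal mice asks what DSS injury changes. None of the 7 genes passed the test in it. In limma fits over all 12 mice, 6 of the 7 were lower and 1 higher, with log2 fold changes from -0.47 for Stard4 to 0.10 for Fdps and adjusted p from 0.514 to 0.903. Their median was -0.23, beside a median of -0.32 over all tested genes. In the mice numbered 1 to 3 the medians were -0.50 and -0.42, so which was the lower changed with the mice used, and in the mice numbered 4 alone 6 of the 7 were higher in the colitis mouse. Under centring on the median of each mouse, the median of the 7 became 0.11 and that of all genes 0.02, so the lower direction was lost under this scaling. Under quantile normalization the medians were -0.066 and -0.049. Of all tested genes, 1.08% passed the adjusted limit of 0.05 and 21.4% an unadjusted P of at most 0.05, and 0 of the 7 passed either. The groups did not overlap in 29.3% of genes and in 0 of the 7.

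BBR did not change these genes detectably in colitis mice or in normal mice. In colitis mice receiving BBR against colitis mice, log2 fold changes ran from -0.33 (95% interval -1.30 to 0.64) for Fdps to 0.17 (-0.48 to 0.82) for Insig1, with adjusted p of 1.00 for all 7. This comparison called 0% of genes at the adjusted limit, 6.39% at the unadjusted one and 7.08% by groups without overlap, and the 7 genes gave 0 in each. In normal mice receiving BBR against normal mice, they ran from -0.43 (-1.40 to 0.54) for Fdps to 0.08 (-0.98 to 1.14) for Stard4, where the calls were 0% adjusted, 1.36% unadjusted and 9.62% without overlap. Again 0 of the 7 were among them. The interaction, which asks whether BBR acted differently in colitis and normal mice, gave values from -0.39 for Stard4 to 0.29 for Insig1, with the lowest adjusted p at 1.00, against 0% and 2.42% of genes called at the adjusted and unadjusted limits.

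The intervals bound what could have been missed. For Insig1, a change with BBR in colitis mice of more than 1.76-fold up or below 0.716-fold lay outside the 95% interval. For Idi1 the interval reached from 0.259-fold to 2.77-fold. In this fit a change of Idi1 of over 2-fold in either direction could not be told from none. The fit had no term for the mice numbered 4, so their lower Idi1 counted as spread within groups. With a block for these mice, the SE of Idi1 in colitis mice against normal mice was 0.38, beside 0.78 without it. The narrower interval for BBR in colitis mice under this block is not given here. Exact two-sided permutation tests of 3 mice against 3 cannot go below p = 0.1, and over the 7 genes and 5 comparisons of groups they gave 0.3 to 1.

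**Figure D2:**
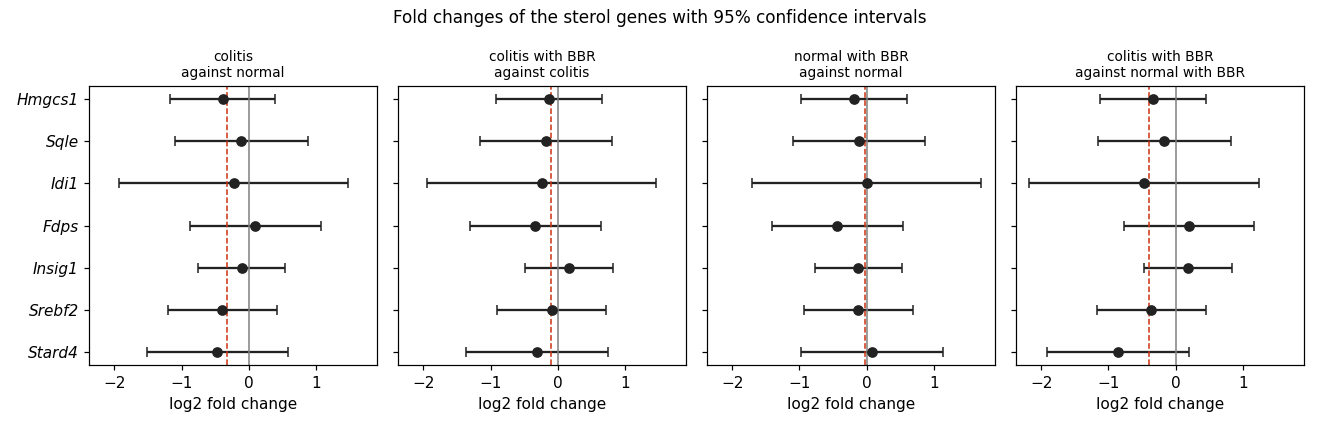
Log2 fold change (horizontal axis, on the log2(FPKM + 0.1) scale) of each gene in 4 comparisons, with 95% confidence intervals from limma. The grey line is 0 and the dashed red line the median of all tested genes; every interval includes 0, and that of Idi1 is the widest in each panel.

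The comparison of mice that received both agents with mice that received BBR alone asks about DSS injury under BBR. Stard4 had the largest value of the 7 here, with a log2 fold change of -0.86 (95% interval -1.91 to 0.20, adjusted p = 0.312 by limma), and Srebf2 was at -0.36 (-1.17 to 0.45, adjusted p = 0.543). Over all genes 0.0392% passed the adjusted limit, 19.7% the unadjusted limit and 20.2% did not overlap, and none of the 7 did. Against normal mice, Stard4 was at -0.78 (-1.83 to 0.28, adjusted p = 0.325), where 0.0196% of genes passed the adjusted limit, 20.1% the unadjusted one and 22.7% did not overlap, again with 0 of the 7. The median over all tested genes was -0.40 against normal mice receiving BBR and -0.42 against normal mice. Centring on the median of each mouse turned the median of the 7 from -0.33 to 0.12 and from -0.47 to 0.022.

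Without the mice numbered 4, Srebf2, Stard4, Hmgcs1, Sqle and Idi1 were lower by more in mice with DSS than in mice without it, in each of the 3 comparisons across DSS. Insig1 went from -0.10 to -0.15 in colitis mice against normal mice, from 0.065 to 0.028 in colitis mice receiving BBR against normal mice and from 0.19 to 0.32 against normal mice receiving BBR, and Fdps turned from 0.20 to -0.49 in colitis mice receiving BBR against normal mice receiving BBR. With the 8 mice numbered 1 to 3 alone, Srebf2 fell by 0.95 on the log2 scale in colitis mice receiving BBR against normal mice receiving BBR, at an adjusted p of 0.0488 in limma. This was the only call of the 7 at the adjusted limit, in a fit that called 15.0% of all genes. The median log2 fold change over all tested genes was -0.55 in that fit. Stard4 fell by 1.33 there at an unadjusted limma P of 0.041 (adjusted p = 0.114), so 2 of the 7 passed the unadjusted limit beside 38.9% of genes. Against normal mice, Srebf2 (-0.87), Hmgcs1 (-0.97) and Stard4 (-1.31) passed the unadjusted limit, beside 38.6% of genes and a median of -0.54 over all genes. In colitis mice against normal mice only Srebf2 did (-0.60), beside 33.4% of genes. These counts of 1 to 3 of the 7 were near or below the shares of all genes. In the mice numbered 4, which are 1 mouse a group with no test, the log2 differences went the other way: Stard4 was at 0.09 and Srebf2 at 0.82 in colitis mice receiving BBR against normal mice receiving BBR. Leaving out only the colitis mouse receiving BBR numbered 4 gave 3 of the 7 at the unadjusted limit against normal mice, beside 40.9% of genes, and 2 against normal mice receiving BBR, beside 38.6%. Leaving it out also raised the adjusted calls over all genes from 3 to 2895 and from 6 to 2255 in these comparisons, whereas leaving out any other mouse of the groups compared gave 0 in the first and 0 to 2 in the second. Leaving out colitis mouse number 2, the lowest in Stard4 at 10.7 FPKM, gave 1 in colitis mice receiving BBR against colitis mice, which was Stard4 (-0.94), beside 5.94% of genes.

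Within groups, the genes other than Insig1 rose and fell together from mouse to mouse. To describe this, the mean of each group and the mean difference of the mice numbered 4 were taken out of the log2 values, which left 7 degrees of freedom among the 12 mice. Among the 6 genes other than Insig1, the 15 pairs had Pearson's r from 0.71 to 0.96 with a median of 0.89. The closest pairs were Sqle with Idi1 (r = 0.96) and Hmgcs1 with Sqle (r = 0.95), and the loosest was Hmgcs1 with Fdps. Insig1 had r from -0.40 with Fdps to 0.16 with Hmgcs1 and a median of -0.15 with the other 6. The division into 6 genes and Insig1 was made after these values were seen. Over all 71311653 pairs of the 11943 genes that averaged 1 FPKM or more, the median r was 0.19, 12% of pairs reached 0.71 and 1.92% reached 0.89. All points share the 12 libraries and their scaling.

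All 6 genes were above their expected level in 6 mice and below it in 3, and the other 3 mice were mixed. Normal mouse number 1, colitis mouse number 1 and the colitis mouse receiving BBR numbered 4 were among those above. Colitis mouse number 2 was below in all 6 and most of all in Stard4, by -1.09 on the log2 scale. In that mouse Insig1 was above its expected level by 0.31. When the group means alone were taken out and the difference of the mice numbered 4 was left in, Idi1 had r from -0.14 with Srebf2 to 0.67 with Fdps among the 6 genes, whereas Hmgcs1 with Sqle was at 0.96 and Srebf2 with Stard4 at 0.83.

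**Figure D3:**
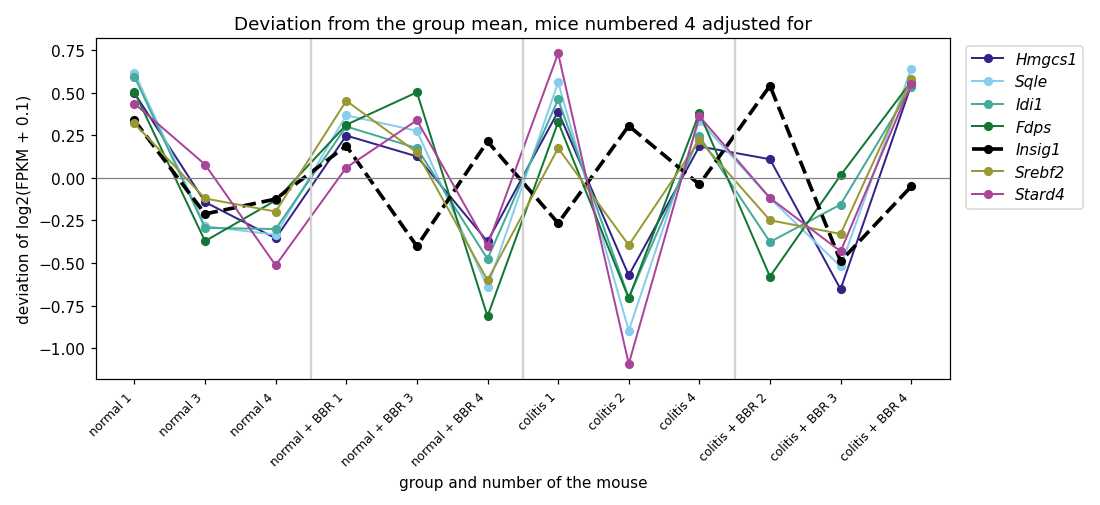
Deviation of log2(FPKM + 0.1) of each gene (vertical axis) in the 12 mice (horizontal axis, by group and mouse number) after the group means and the mean difference of the mice numbered 4 were taken out. Lines only join the points of a gene; 6 genes move together, colitis mouse number 2 is the lowest in Sqle, Idi1 and Stard4, and Insig1 (dashed) does not follow them.

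In these deviations within groups, most other cholesterol synthesis enzymes varied with the 7 genes, as did genes outside the pathway. Of the 16 other cholesterol synthesis enzymes, the median r of their deviations with the mean of the 7 genes was 0.85, against 0.46 over all 11936 other genes with a mean of at least 1. Lss, the cyclase that forms lanosterol, reached 0.95 and Nsdhl, which takes part in removing the methyl groups of the sterol nucleus, 0.95, whereas Sc5d, a late desaturase, had 0.13. The median was 0.85 for 8 genes of sterol sensing, among which Scap had 0.91 and Insig2, the paralog of Insig1, had -0.31. Fatty acid synthesis genes had a median of 0.89, and genes of LXR and cholesterol efflux one of -0.03. The median was -0.67 for granulocyte markers with a mean of at least 1 and -0.76 for macrophage markers, which moved opposite to the sterol genes within groups; their part in the pattern was not tested. The genes with the highest r, over all genes, were Coa5 (0.99), Pigf, Pi4kb, Ccdc47 and Ddx19b (0.98 each), and Pgap2, Aacs, Kansl3, Impa2 and Naxd (0.97 to 0.98). Without taking out groups, genes among the most like the mean of the 7 over the 12 mice were Lactb (0.95), Pdss1, Abhd14b, Asl, Ap1m2, Rapgef5, Mettl9, Trappc6a and Etfa (0.91 to 0.93).

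In colitis mice against normal mice, the other enzymes of the pathway were divided over all mice. Of 16, 7 were higher and 9 lower, and their median was -0.05 on the log2 scale. In the mice numbered 1 to 3 it was -0.40, beside -0.42 over all genes, whereas 12 of the 16 were higher in the colitis mouse numbered 4 than in the normal mouse numbered 4, and under centring on the median it was 0.29. The only one at the unadjusted limit was Msmo1, a sterol methyl oxidase, at 314, 221 and 203 FPKM in colitis mice and 213, 136 and 101 in normal mice (0.76, SE 0.31, adjusted p = 0.193 by limma). The value of Tm7sf2, which acts late in the pathway, was -0.99 and did not pass. Of 8 sterol sensing genes, 1 passed the unadjusted limit, Rnf139, a ubiquitin ligase gene (-0.57, adjusted p = 0.166 by limma), and Srebf1, the gene of the fatty acid regulator SREBP-1, was at -0.74 and did not. Of 9 genes of the isoprenoid branches, Nus1, which takes part in dolichol synthesis, was higher (0.67) and Coq2, which takes part in ubiquinone synthesis, lower (-0.66) at the unadjusted limit. These 2 of 9 are near the 21.4% of all genes that passed it.

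Fatty acid synthesis genes, which are chiefly targets of SREBP-1, had lower mean log2 levels in colitis mice in 10 of 10 cases, beside 73.7% of all tested genes, with a median of -0.94 against -0.32 over all genes. The mice numbered 4 did not share this: 6 of the 10 were higher in the colitis mouse numbered 4 than in the normal mouse numbered 4 and 4 were lower, and the median without these mice was -1.39. Only Acss2, an acetyl-CoA synthetase gene, passed the unadjusted limit, which 15.9% of all genes passed as lower, at 23.0, 7.52 and 34.5 FPKM in colitis mice and 67.4, 43.2 and 44.2 in normal mice (-1.47, adjusted p = 0.194 by limma). Scd1, a desaturase gene, had the largest value (-1.61) and did not pass. The median stayed below that of all genes under centring on the median, at -0.60 against 0.02. Of 12 tested genes of cholesterol uptake, transport and esterification, 4 were lower and none higher at the unadjusted limit, beside 15.9% of all tested genes that were lower at it. They were Npc1 (-0.69) and Npc2 (-0.45), needed to move cholesterol out of lysosomes, and the sterol-binding protein genes Osbp (-0.56) and Osbpl2 (-0.71). The median of the 12 was -0.20, beside -0.32 over all genes, and under centring it was 0.14 beside 0.02. No gene of these lists passed the adjusted limit.

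LXR, the sensor of oxysterols, drives genes of cholesterol export. Mylip, an LXR target that encodes a ubiquitin ligase, read 4.21, 6.19 and 5.70 FPKM in colitis mice and 11.1, 12.7 and 15.5 in normal mice, without overlap (-1.27, SE 0.35, adjusted p = 0.0892 by limma). In this comparison 29.3% of all genes did not overlap. Of the 7 genes in the list of LXR and efflux, 1 was lower and 1 higher at the unadjusted limit, beside 21.4% of all genes that passed it. Abcg5, which forms a sterol export pump with Abcg8, read 16.0, 16.2 and 15.5 FPKM in normal mice receiving BBR and 4.48, 7.23 and 4.78 in normal mice, without overlap. Its log2 fold change with BBR was 1.55 (95% interval 0.28 to 2.81, adjusted p = 1.00 by limma). Abcg8 was at 3.12, 3.45 and 3.61 FPKM against 1.39, 1.72 and 1.58, a log2 fold change of 1.07 (-0.20 to 2.34). Abcg5 was the only gene of the 7 in this list at the unadjusted limit in that comparison, beside 1.36% of all genes, and 9.62% of all genes did not overlap. In colitis mice against normal mice Abcg5 was higher by a similar value, with a log2 fold change of 1.26 (95% interval 0.0030 to 2.53, adjusted p = 0.233 by limma) and overlapping groups. With BBR in colitis mice, Abcg5 ranged from 4.82 to 29.7 FPKM beside 6.72 to 23.4 in colitis mice, a log2 fold change of -0.29, and the interaction was -1.83 (adjusted p = 1.00 by limma).

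With BBR in colitis mice, 0 of the 16 other enzymes passed the unadjusted limit, beside 6.39% of all genes. Their median was -0.19, beside -0.09 over all genes, and the largest values were those of Mvd (-0.72), the decarboxylase that makes isopentenyl diphosphate, and Lss (-0.66). With BBR in normal mice it was -0.19 beside -0.02, but -0.021 beside 0.0021 in the mice numbered 1 to 3, and 13 of the 16 were lower in the mouse with BBR numbered 4. Over all mice, the list had its largest values for Dhcr7 (-0.52), which catalyses a last step of the pathway, and Mvd (-0.52), and again 0 of 16 passed, beside 1.36% of all genes. Counts of 0 are near these shares for lists of this size. Genes of sterol sensing and of fatty acid synthesis passed neither limit in either comparison.

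**Figure D4:**
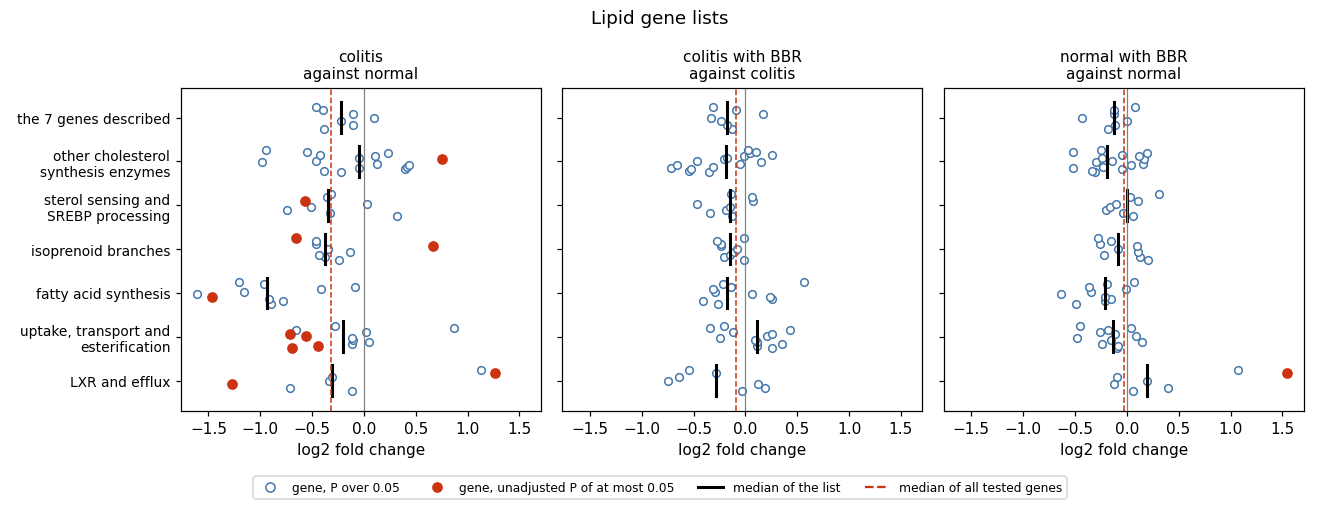
Log2 fold change (horizontal axis, on the log2(FPKM + 0.1) scale) of each tested gene of 7 lipid lists in 3 comparisons. Filled red points passed an unadjusted P of at most 0.05, black bars are list medians and the dashed line the median of all tested genes; the 10 fatty acid synthesis genes lie left of 0 in colitis mice, and Abcg5 is the filled point at 1.55 in normal mice receiving BBR.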

How the data were processed

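RNA of 12 mice was sequenced by the authors, who filtered reads with SOAPnuke, aligned them with Bowtie2 2.2.5 and estimated expression with RSEM 1.2.12 on mm9, by the methods and the submitters' processing notes. The labels and methods name different kits and sequencers. The deposited values are read as FPKM and may be TPM. The table holds no counts, and the low values of single-transcript genes gave no clean steps, so the depth is unknown. Genes with a mean of at least 0.1 were fitted as log2(FPKM + 0.1), a scale that understates changes of low genes. limma 3.58.1 in R 4.3.3 was used, with 1 mean per group, a shared spread with a trend and Benjamini-Hochberg adjustment over 15315 genes. The fit was tested on simulated data. Other steps were run with SciPy 1.17.1, NumPy 2.4.6 and pandas 2.3.3 (Python 3.11.15), and drawn with matplotlib 3.10.9.

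The members and lists were chosen with earlier results of these data known. From each list and comparison, genes past the adjusted limit and the 2 largest changes with a mean of at least 1 were eligible to be named. Other genes named for their P, and which comparisons are shown, were chosen after the values were seen. Genes among the 10 most like the 7 by Pearson's r were named. Replicates are the mice numbered in the labels. Alternatives were other pseudocounts, filters and scalings, no trend, the compared groups alone, 2 blocks, the mice numbered 1 to 3 alone and leaving out each mouse. Promoters of Sqle, Fdps and Stard4 and some related genes are not reported here.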

Additional observations from a re-analysis of the deposited data

How the results depend on the processing

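The result that none of the 7 genes passed the adjusted limit held under all alternatives except one. With the mice numbered 1 to 3 alone, Srebf2 passed in colitis with BBR against normal with BBR, at -0.95 and an adjusted limma p of 0.0488 (1 of the 7). At the unadjusted limit that fit gave 1 gene in colitis against normal, 3 in colitis with BBR against normal and 2 in colitis with BBR against normal with BBR, where the fit of all mice gave 0, and leaving out 1 mouse gave 0 to 3 and 0 to 2 in the last pair, and 0 to 1 in colitis with BBR against colitis. Of 408 alternative log2 fold changes, computed for 24 of the 42 values of the 7 genes in 6 comparisons, 358 kept their sign and call, 49 turned their sign, none of them called, and 1 gained a call, with adjusted p from 0.0488 to 1.00. The turns listed below are those of these 24 values, and turns among the rest of the 42 are not listed in full. Under quantile normalization, the sign turned for Sqle 0.030 in colitis against normal, and for Srebf2 0.031 in colitis with BBR against colitis. Under centring on the median, the sign turned for Sqle 0.23, Idi1 0.11 and Insig1 0.23 in colitis against normal, and for Hmgcs1 0.021 and Srebf2 0.060 in colitis with BBR against colitis, and for Srebf2 0.091 in colitis with BBR against normal with BBR. The median of the 7 genes also turned under this scaling in colitis with BBR, from -0.47 to 0.022 against normal and from -0.33 to 0.12 against normal with BBR. With the replicate number as a block, the sign turned for Sqle 0.051 in colitis against normal, and for Hmgcs1 0.095, Sqle 0.086 and Srebf2 0.064 in colitis with BBR against colitis. With the mice numbered 1 to 3 alone, the sign turned for Fdps -0.16 in colitis against normal, and for Sqle 0.038 and Srebf2 0.078 in normal with BBR against normal. Outside the listed values, Fdps turned from 0.20 to -0.49 in colitis with BBR against normal with BBR. Leaving out each mouse in turn turned the sign of uncalled values, with log2 fold changes of -0.36 to 0.38 for Sqle, -0.96 to 0.37 for Idi1, -0.12 to 0.41 for Fdps, -0.29 to 0.10 for Insig1 and -0.82 to 0.17 for Stard4 in colitis against normal, of -0.45 to 0.22 for Hmgcs1, -0.66 to 0.13 for Sqle, -0.71 to 0.28 for Idi1, -0.14 to 0.38 for Insig1, -0.54 to 0.18 for Srebf2 and -0.94 to 0.040 for Stard4 in colitis with BBR against colitis, of -0.31 to 0.038 for Hmgcs1, -0.30 to 0.15 for Sqle, -0.74 to 0.83 for Idi1, -0.74 to 0.081 for Fdps, -0.25 to 0.081 for Insig1, -0.27 to 0.017 for Srebf2 and -0.0072 to 0.21 for Stard4 in normal with BBR against normal.

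The samples share replicate numbers, and the labels name no shared animal, litter or day for a number. Deviations of same-numbered mice correlated at 0.36 to 0.75 for number 4, 0.29 to 0.39 for number 1, 0.11 to 0.14 for number 3 and 0.078 for number 2, beside -0.53 to 0.46 between mice of different numbers. As the pair of number 2 was below 0.1, the mice were not treated as paired. The replicate block gave 1 of the 7 at the unadjusted limit in colitis against normal, Insig1 at -0.43, and 734 genes at the adjusted limit there, against 165 without it. A block for the mice numbered 4 gave 1412. With the mice numbered 1 to 3 alone the adjusted calls were 804 in that comparison, 2157 in colitis with BBR against normal and 2302 in colitis with BBR against normal with BBR, where the fit of all mice gave 3 and 6. Other settings gave 71 to 488 adjusted calls in colitis against normal, and leaving out 1 mouse gave 11 to 211. The cause was not tested.

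The median r among the 6 genes other than Insig1 was 0.85 under quantile normalization, 0.84 under centring on the median, 0.67 without a term for the mice numbered 4 and 0.87 to 0.93 without each mouse in turn. For Insig1 with the others it was -0.30, -0.25, -0.19 and -0.39 to 0.076. These alternatives were chosen after seeing the data. With 3 mice a group and no term for the mice numbered 4, the intervals are wide. With BBR in colitis mice they reached from 0.716-fold to 1.76-fold for Insig1 and from 0.259-fold to 2.77-fold for Idi1. The depth of the libraries is unknown.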
